A study of Zea mays with 6 samples.

Results

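Grasses such as maize acquire iron from calcareous soil by a chelation route. Nicotianamine synthase joins S-adenosylmethionine molecules into nicotianamine, an aminotransferase converts it to a keto acid, and deoxymugineic acid synthase reduces that to the phytosiderophore deoxymugineic acid, which roots release into the soil. The plasma membrane transporter yellow stripe 1 then brings the iron-phytosiderophore complex into the root. Genes of this route are known to be induced in grass roots short of iron. Nicotianamine itself stays in the plant and chelates iron, zinc and copper during transport.

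The genes of this route were taken by name. They were the transporter yellow stripe 1, ys1, nicotianamine synthase 1, nas1, with the probe sets S2 and S1_x (the endings of their array names), nicotianamine synthase 2, nas2, and deoxymugineic acid synthase 1, DMAS1. A search of the titles and target descriptions in the authors' deposited table for nicotianamine, mugineic or yellow stripe added 1 transcript. It has no symbol and only weak similarity to an Arabidopsis nicotianamine synthase, and is called NAS-similar here. In all these were 6 probe sets for 5 genes, of 17734 probe sets on the array. A probe set is a group of short probes designed against the same transcript.

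Root RNA came from maize (Zea mays, cultivar Nongda108) at the reproductive stage, grown in a greenhouse on calcareous sandy soil. The basal fertilizer listed for all plants supplied nitrogen, phosphorus, potassium, magnesium, copper and zinc, and no iron is listed. Intercropped maize shared the soil with peanut (Arachis hypogaea, cultivar Luhua14) and monocropped maize grew without it, with 3 samples in each group and 1 Affymetrix maize array per sample. A peanut monoculture named in the labels was not analysed here. The sources used here do not say whether the 3 samples of a group were separate plants, pots or repeated arrays. Each p-value therefore measures spread among these arrays alone, and that spread may be technical.

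The 6 arrays had median signals of 134 to 142, and 25.4% to 27.7% of their probe sets had a signal below 50. The root-preferential gene zrp4, the only root marker found by name, had signals of 427, 560 and 438 on the intercropped and 485, 208 and 372 on the monocropped arrays. Of 20 green tissue probe sets, 16 were at 50 or more on all arrays, and their summed signal was 2218 to 3449 in the intercropped and 2203 to 2905 in the monocropped samples. Of 56 probe sets of dividing tissue, 52 were at 50 or more on all arrays, with sums of 37994 to 46552 and 41198 to 48514. The poly-A spike controls, bacterial transcripts that can be added to the RNA before labelling, were lowest on intercropped array 1, with a mean log2 signal of 7.41, and highest on intercropped array 3, with 8.08. On the other 4 arrays they were between 7.68 and 7.87.

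The comparison asked whether the route's transcripts differed between roots grown beside peanut and roots grown alone. A probe set was tested if 3 or more of the 6 arrays gave it a signal of 50 or higher, which held for 13116 probe sets and for 5 of the 6 members, all but nas2. All 5 tested members had lower mean log2 signals in the intercropped roots. Their median difference on the log2 scale was -0.40, but none was called at an adjusted p under 0.05 in limma (adjusted p = 0.441 to 0.629). Over all 13116 probe sets limma likewise called 0%, 11.1% had an unadjusted p under 0.05, and the lowest adjusted p was 0.129. Among the members 1 of 5 had an unadjusted p under 0.05, the S2 probe set of nas1, against 5.51% of all tested probe sets with such a p and a lower mean. In 4 of the 5, all but NAS-similar, every intercropped array lay below every monocropped array, against 8.69% of all tested probe sets. A lower mean was found in 48.1% of all tested probe sets, whose median difference was 0.01. The members are related by function and 2 of them measure nas1, so the counts are not counts of independent events. In bulk root RNA, fewer cells that express a gene and less of its RNA per cell cannot be told apart.

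**Figure D1:**
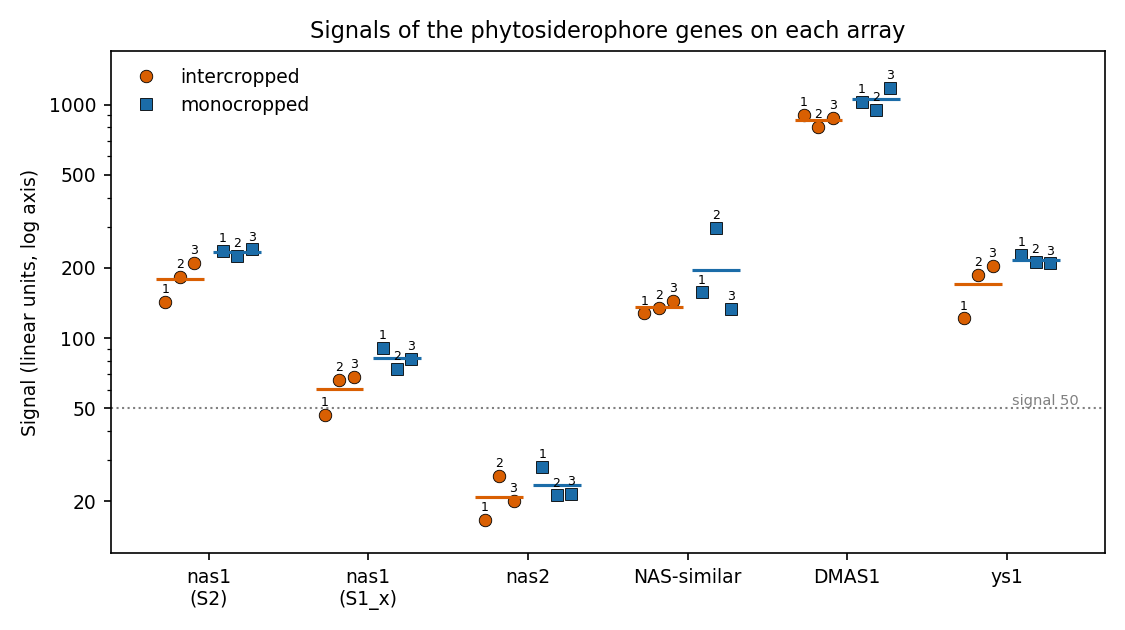
Signal of each of the 6 probe sets on each array, on a log axis in linear signal units. Circles are intercropped and squares monocropped samples, small digits give the replicate number, short bars the arithmetic mean of 3 arrays, and the dotted line a signal of 50. Intercropped array 1 is the lowest point for all probe sets but DMAS1, and nas2 lies below the dotted line throughout. Heights of different probe sets are not comparable, since probes differ in brightness.

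Nicotianamine synthase makes the precursor of all phytosiderophores. The S2 probe set of nas1 had signals of 143, 183 and 210 on intercropped arrays 1 to 3, and of 236, 225 and 240 on monocropped arrays 1 to 3. The groups did not overlap, since the highest intercropped array was below the lowest monocropped one by a gap of 6.92%. The means were 179 ± 33.8 and 234 ± 7.77 (SD, n = 3 each), and the spread among the intercropped samples was the wider one. The log2 difference, intercropped minus monocropped, was -0.40 ± 0.17 (SE), with a 95% interval of -0.80 to -0.01 and a limma adjusted p of 0.441. An exact two-sided permutation test gave p = 0.1, the smallest that 3 samples against 3 allow. Without intercropped array 1 the difference was -0.25.

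The S1_x probe set of the same gene is dimmer, and the x in its name is the manufacturer's mark for probes that may also match other transcripts. It had signals of 47.0, 66.4 and 68.2 on the intercropped arrays and of 90.9, 73.6 and 81.4 on the monocropped arrays. As with S2, intercropped array 1 was the lowest and the groups did not overlap. The difference was -0.45 ± 0.20 (95% interval -0.91 to 0.01, limma adjusted p = 0.462) and -0.28 without intercropped array 1. Nicotianamine synthases form a family of similar genes, so signal on either probe set may include transcripts of other family members.

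The array carries 4 probe sets annotated as nas1, and the remaining pair, which the selection did not include, was too dim to be tested. The S1 probe set of the same transcript cluster had signals of 23.6, 32.1 and 40.4 on the intercropped and 59.3, 34.4 and 52.4 on the monocropped arrays, and the groups overlapped. The other, from another transcript cluster, had signals of 9.12, 10.7 and 7.14 against 48.3, 13.4 and 37.7, all below 50, and the groups did not overlap. With no filter on dim probe sets the difference was -0.60 ± 0.27 for S1 (limma adjusted p = 0.493). For the other it was -1.71 ± 0.45 (limma adjusted p = 0.301). Both probe sets were added after their values were seen, and at signals this low their differences were not taken as support in either direction.

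The second nicotianamine synthase, nas2, was below 50 on every array. Its signals were 16.7, 25.8 and 20.05 in the intercropped roots and 28.1, 21.2 and 21.5 in the monocropped roots, and the groups overlapped. With no filter on dim probe sets the difference was -0.19 ± 0.22, with a 95% interval of -0.70 to 0.32 (limma adjusted p = 0.789). At this brightness the arrays did not resolve a difference for nas2 in either direction.

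The NAS-similar transcript is annotated from 4 expressed sequence tags at grade E, where the authors' deposited table gives grade A to ys1 and DMAS1. It had signals of 128, 135 and 145 on the intercropped arrays and of 157, 296 and 133 on the monocropped arrays. The groups overlapped, and monocropped array 2 stood above all others. The mean difference of -0.44 ± 0.29 (95% interval -1.11 to 0.24, limma adjusted p = 0.629) rested on that array, and it was -0.09 without it. Without monocropped array 3 it was -0.67.

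DMAS1, which catalyses the last step to deoxymugineic acid, had signals of 901, 802 and 879 on the intercropped arrays and of 1029, 951 and 1177 on the monocropped arrays. The groups did not overlap and were 5.46% apart at their nearest arrays. The means were 861 ± 52.2 and 1052 ± 115 (SD, n = 3 each), so that here the monocropped samples were the more spread. The difference of -0.29 ± 0.12 was the smallest in size of the 5 tested, and its 95% interval ran from -0.57 to 0.00 (limma adjusted p = 0.451, exact permutation p = 0.1). Of all tested probe sets, 12.7% had a difference below that of DMAS1. Leaving out 1 array at a time gave differences between -0.36 and -0.20, and DMAS1 was the only tested member that no single array moved by more than 1.5 times. Its probe set is annotated at grade A, with 10 probes on the DMAS1 transcript itself and at most 15 on any listed transcript.

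The transporter ys1 is the uptake step of the route. Its probe set is annotated at grade A with 15 probes on the ys1 transcript, whose protein the annotation predicts to cross the membrane 14 times. The signals were 121, 187 and 203 on the intercropped arrays and 227, 212 and 209 on the monocropped arrays. The groups did not overlap, but intercropped array 3 and monocropped array 3 were only 2.71% apart, and intercropped array 1 was far below all others. The means were 170 ± 43.3 and 216 ± 9.52 (SD, n = 3 each). Monocropped over intercropped this was a 1.30-fold ratio of geometric means with a 95% interval of 0.923 to 1.82. The log2 difference was -0.37 ± 0.21 (95% interval -0.86 to 0.12, limma adjusted p = 0.570, exact permutation p = 0.1). Without intercropped array 1 it was -0.15, and without both arrays numbered 1, an alternative chosen after the data were seen, -0.11.

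**Figure D2:**
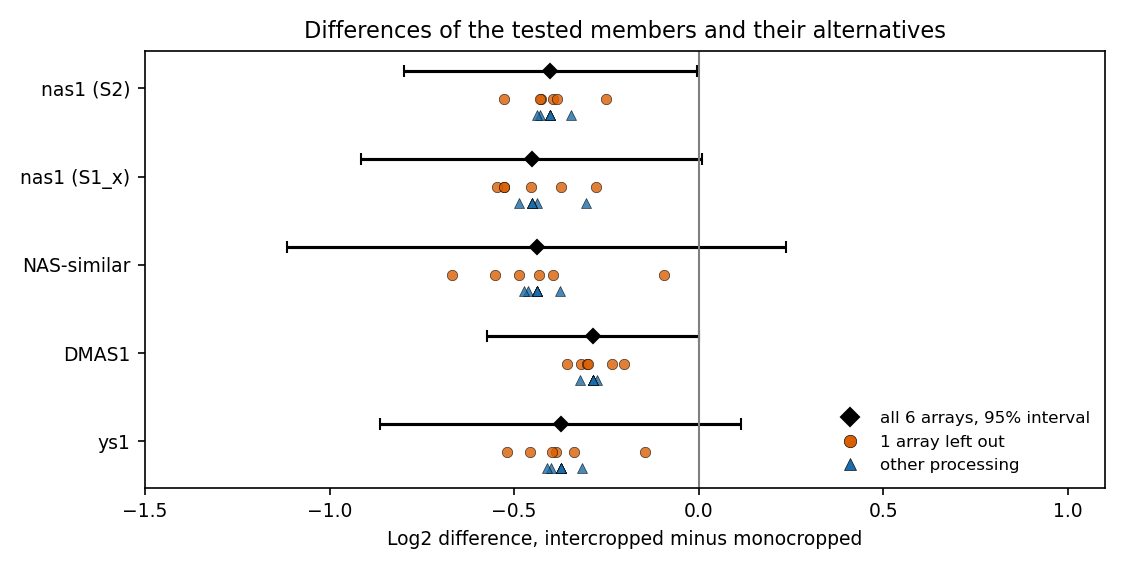
Log2 difference, intercropped minus monocropped, of the 5 tested probe sets. Diamonds are the estimates from all 6 arrays with 95% intervals, circles those with 1 array left out, and triangles those under other normalizations, filters, transforms and models. The other filters and models leave the estimate as it is by construction, so only normalizations and transforms can move a triangle. All points lie below 0, the intervals of all but nas1 S2 reach 0 or above, and ys1 and NAS-similar each have 1 circle near 0.

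The authors' deposited table, made with the SAM method, lists 3 of the 6 members, namely ys1, DMAS1 and NAS-similar. In the authors' deposited table the q-values were 68.8% for ys1, 49.7% for DMAS1 and 74.9% for NAS-similar. The authors' deposited table gives a q-value under 5% to 5 of its 12255 probe sets (0.0408%), and none of them is a member.

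The members differed in how their signal varied over the 6 arrays. For each pair, the root mean square difference between log2 signals was taken after each probe set was centred on its own mean over the 6 arrays. It was 0.09 between the nas1 probe sets, and 0.09 and 0.10 between ys1 and nas1 S2 and S1_x. Seen from ys1, nas1 S2 was the 36th nearest and nas1 S1_x the 44th nearest of 13115 other tested probe sets. DMAS1 was at 0.29 from ys1 and at 0.21 from nas1 S2, and NAS-similar at 0.40 from each. In the nas1 and ys1 probe sets, array 1 was the lowest and array 3 the highest of the intercropped arrays. NAS-similar had the same order among the intercropped arrays, but was highest on monocropped array 2. DMAS1 was lowest on intercropped array 2 and highest on monocropped array 3. The poly-A spike controls were likewise lowest on intercropped array 1, but unlike ys1 they were second lowest on monocropped array 1 (7.68) and highest on intercropped array 3. The hybridisation spike controls had their highest mean log2 signal, 11.7, on monocropped array 1 and their lowest, 9.54, on intercropped array 3. The 3' to 5' signal ratio of ubiquitin, a measure of RNA integrity and labelling, was 1.52, 1.38 and 1.30 on intercropped arrays 1 to 3. On the monocropped arrays it was 1.49 to 1.51. For cyclophilin the ratio was 1.27, 1.30 and 1.19 on the intercropped and 1.16, 1.25 and 1.21 on the monocropped arrays. For GAPDH it was 2.28, 1.88 and 2.12 on the intercropped and 1.87, 2.30 and 2.21 on the monocropped arrays. Neither of these fell steadily over intercropped arrays 1 to 3 as ubiquitin did. The part of these controls in the result was not tested.

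The nas1 probe sets and ys1 had a pattern over the arrays like that of a group of tested probe sets set apart by the authors' filter. The authors' filtered table has no row for 864 of the 13116 tested probe sets, both nas1 probe sets among them. The further criterion behind this is not explained in the sources used here. The authors' name for that table carries the mark 3P, which may refer to calls of a transcript as present, but this could not be checked. The split was made after the data were seen. Of these 864 probe sets, 87.3% had a lower mean in the intercropped roots, against 45.4% of the 12252 in the table. Every intercropped array was below every monocropped array in 25.1% of the 864, against 7.53% of the 12252. Their median log2 difference was -0.24, and -0.14 without intercropped array 1, against 0.03 in the table.

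Intercropped array 1 was the lowest of the 6 arrays in 67.8% of the 864 probe sets and in 17.2% of the 12252. After centring, the median of the 864 was -0.32, -0.09 and 0.05 on intercropped arrays 1 to 3 and 0.19, 0.07 and 0.10 on monocropped arrays 1 to 3. For ys1 the same centred values were -0.64, -0.02 and 0.10, then 0.26, 0.16 and 0.14. The pattern was also present among the brighter of them: the 161 with a mean log2 signal of at least that of 100 had a median difference of -0.26, 85.7% with a lower mean and 24.8% with every intercropped array below every monocropped array.

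The transporter ys1 is in the authors' filtered table, yet 58 of the 100 tested probe sets nearest to it in pattern are not. For the nas1 probe sets S2 and S1_x the number was 56 and 64, for DMAS1 9 and for NAS-similar 4, where 6.59% of all tested probe sets have no row there. What sets these probe sets apart, and its part in the lower nas1 and ys1 signals, was not tested. DMAS1 was not lowest on intercropped array 1, and its centred values were -0.07, -0.24 and -0.11 on the intercropped arrays and 0.12, 0.00 and 0.31 on the monocropped arrays.

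**Figure D3:**
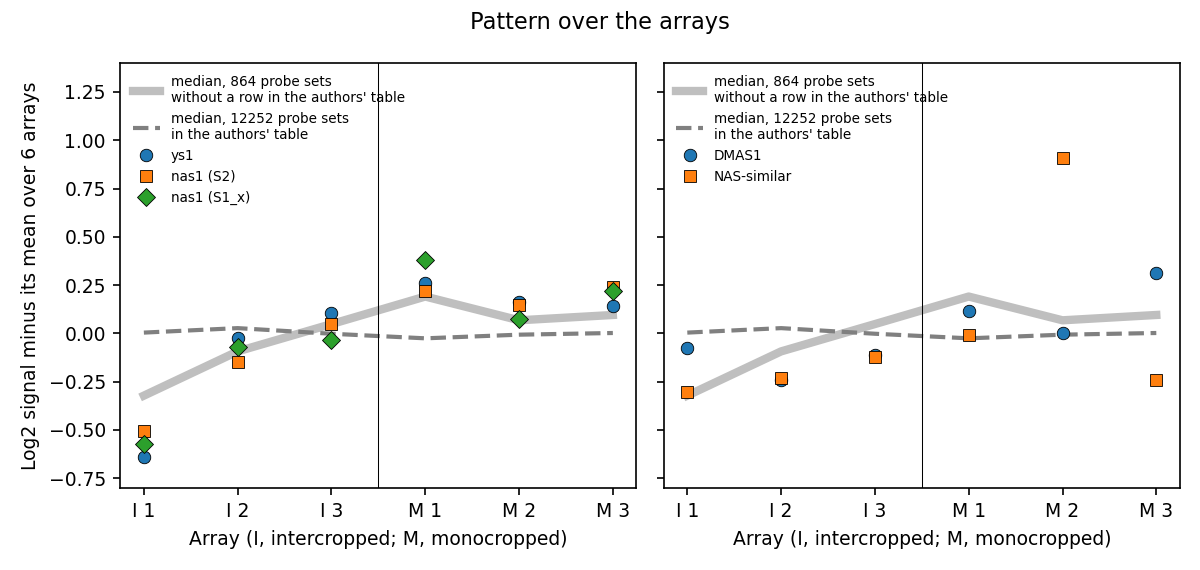
Log2 signal minus its own mean over the 6 arrays (vertical axis) on each array, I for intercropped and M for monocropped. Left, ys1 and both nas1 probe sets, and right, DMAS1 and NAS-similar, over the medians of 864 tested probe sets without a row in the authors' filtered table (thick line) and of 12252 in it (dashed line). On the left the points and the thick line are lowest on intercropped array 1 and lie above 0 on all monocropped arrays, though single steps differ in size and direction. DMAS1 is lowest on intercropped array 2.

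Among tested probe sets with a gene symbol, those most like each member were found by the same measure. Nearest to ys1 were tb1, the branching regulator teosinte branched 1 (0.06), fl1, which the reference gene table lists as a LEAFY-like gene (0.07), and gz27 (0.08), a gamma zein storage protein of the endosperm. Nearest to nas1 S2 were fl1 (0.04), expB5 (0.06), a beta-expansin, and tb1 (0.06). None of these 4 genes has a row in the authors' filtered table for the probe set concerned. The probe set of tb1, for example, had signals of 50.1, 69.8 and 84.0 on the intercropped and 92.6, 82.6 and 88.4 on the monocropped arrays.

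Among those nearest to DMAS1 were LOC542763 (0.08), which has no named function, and PAD1 (0.09), an alpha subunit of the 20S proteasome. The probe set of PAD1 had 766, 702 and 739 on the intercropped and 775, 812 and 882 on the monocropped arrays. Nearest to NAS-similar were LOC542286, annotated as a putative anthranilate synthase (0.14 and 0.16 for its 2 probe sets), and BT2B (0.16), a nucleotide sugar translocator. These likenesses are descriptions over the same 6 arrays.

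Genes that work beside the route were taken from 4 lists matched on names. They held 22 tested genes, a gene being a symbol or, where there was none, a probe set. None was called in either direction, 12 had lower and 10 had higher means, and the lowest limma adjusted p was 0.134. An unadjusted p under 0.05 was found for 5 of the 22, against 11.1% of all tested probe sets. The list of iron regulators had no match on the array annotation.

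Methionine and its recycling in the Yang cycle supply S-adenosylmethionine to nicotianamine synthase. Of 7 tested genes in this list, 0 were called, 4 had higher and 3 lower means in the intercropped roots, and the median difference was 0.05. The gene with the lowest p in all lists was HMT-2, a homocysteine S-methyltransferase, an enzyme that forms methionine from homocysteine. Its signals were 157, 216 and 137 on the intercropped and 40.1, 33.8 and 63.6 on the monocropped arrays. The groups lay far apart, with means of 170 ± 41.1 and 45.8 ± 15.7 (SD, n = 3 each), and the log2 difference was 1.92 ± 0.28 (limma adjusted p = 0.134). It passed the filter through the intercropped arrays, 2 of its 3 monocropped signals were below 50, and it was left out where a mean log2 signal of that of 100 was asked for, so the size of the difference is uncertain. The related genes did not share that size: the probe set titled homocysteine S-methyltransferase-3 had 0.27 ± 0.18, and HMT-1 had 0.14 ± 0.15.

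In the list of iron and metal transport, 0 of 5 tested genes were called, 2 had higher and 3 lower means, and the median was -0.02. A transcript weakly similar to an Arabidopsis zinc transporter had 148 ± 23.6 against 199 ± 16.8 in monocropped roots, or -0.44 ± 0.16 on the log2 scale (limma adjusted p = 0.390). Another transcript with weak similarity to a zinc transporter lay the other way, with 375 ± 49.8 against 300 ± 36.7 and a difference of 0.32 ± 0.16 (limma adjusted p = 0.515). The ferric-chelate reductase gene fcr2, also annotated as a cytochrome b5 reductase, had a difference of -0.07 ± 0.13.

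Ferritins store iron, metallothioneins bind metals through cysteines, and heme oxygenase releases iron from heme. Of 10 tested genes for iron storage and cofactors, 0 were called, 4 had higher and 6 lower means, and the median was -0.02. A transcript weakly similar to an Arabidopsis metallothionein had 512 ± 228 against 193 ± 70.6, a difference of 1.37 ± 0.39 (limma adjusted p = 0.290). The metallothionein gene mtl2 had 393 ± 178 against 165 ± 57.1, a difference of 1.23 ± 0.38 (limma adjusted p = 0.331). The probe set of mtl2 carries the x mark, so its signal may include other transcripts. For both metallothionein transcripts, all intercropped arrays were above all monocropped arrays, as for 8.29% of all tested probe sets. The other metallothionein and the ferritins, added here after their values were seen, had differences nearer 0: mtl1 had 6112 ± 635 against 6261 ± 481 and -0.04 ± 0.10, fer1 had 0.25 ± 0.19 and fer2 had 0.09 ± 0.18. A probe set of a transcript weakly similar to an Arabidopsis heme oxygenase, also with the x mark, had 109 ± 10.6 against 164 ± 36.5. The difference was -0.56 ± 0.19 (limma adjusted p = 0.363). A second probe set of the same transcript cluster was counted in the list as well. The mitochondrial Rieske iron-sulfur protein was likewise counted through isp1 (-0.01 ± 0.10) and through a probe set without a symbol (-0.10 ± 0.09). The list may therefore hold fewer than 10 distinct genes, and these repeats were all among those with lower means.

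**Figure D4:**
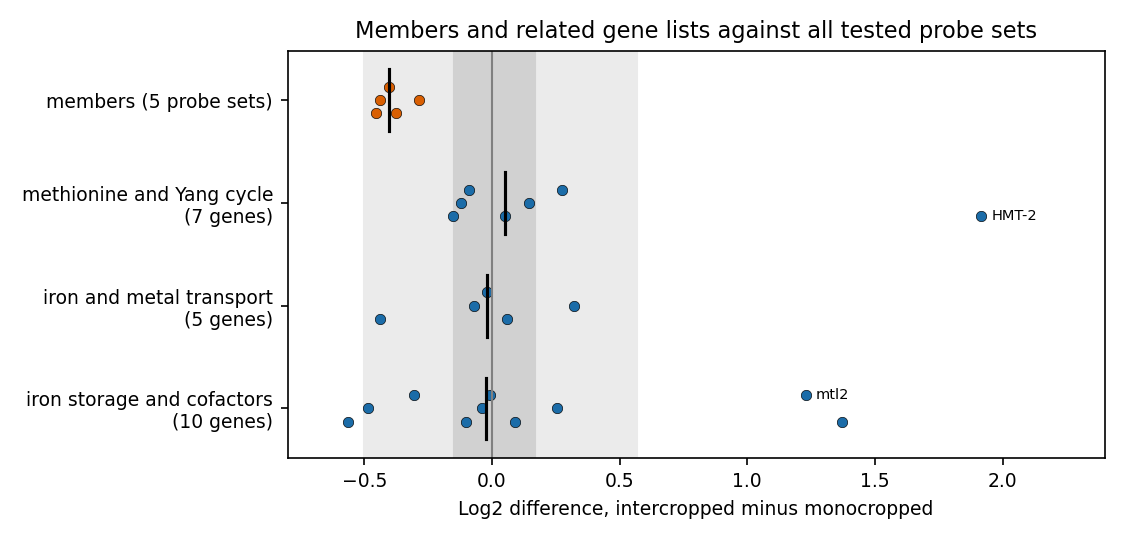
Log2 difference, intercropped minus monocropped, of the 5 tested members and of the 22 tested genes of the related lists. Each point is a probe set, vertical bars are medians, and the dark and light bands hold the middle 50% and 90% of all 13116 tested probe sets. The members lie together at the lower side of the light band, while the list medians are near 0 and HMT-2, mtl2 and a metallothionein-similar transcript lie far to the right.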

How the data were processed

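Biotin-labelled cRNA from root RNA (TRIzol) of 3 intercropped and 3 monocropped maize samples was hybridised to Affymetrix maize arrays. The deposited table holds an intensity per probe set on a linear scale, already summarised by the authors with GCOS 1.4, per the submitters' processing notes. How the signal was summarised and to what target it was scaled is not given in the sources used here. Such scaling hides any change of all transcripts in 1 direction. The authors' filtered table gives 12255 probe sets as log2 values. Per the file headers, the authors compared the groups with SAM and 100 permutations, and list a score, a log2 difference, a linear ratio (fold change) and a q-value in percent.

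Control probe sets were left out, which kept 17555, and signals were raised to a floor of 1 before log2. Probe sets at 50 or more on at least 3 arrays were tested with limma 3.58.1 in R 4.3.3 (eBayes with trend=TRUE, two-sided, Benjamini-Hochberg over all 13116 tested). The call was run on simulated data with independent noise and differences larger than those of the members. That run therefore does not show how well differences of the members' size are found. The median standard error of a difference was 0.18, and the number of arrays limits the precision. Up to 15 alternative fits per member, beside the exact permutation test and the authors' SAM values, covered normalization, filter, transform, variance model, a replicate block and left-out arrays. The members, the lists and the tests were chosen with earlier results of these data known. From each list the 3 genes with the lowest p were named, and for each member the 3 probe sets with a symbol and the smallest root mean square difference, of which 1 for DMAS1 is not reported here; 1 list match was removed by name. Genes were named by the array annotation and by the RefSeq table of assembly Zm-B73-REFERENCE-NAM-5.0, which was used for names alone. The nas1 probe sets outside the selection were added after their values were seen. No sequence of the members was used here.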

Additional observations from a re-analysis of the deposited data

How the results depend on the processing

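The differences of the 5 tested members stayed below 0 in all 50 values from the 10 settings that change the signals or the arrays used, and the number of members called was 0 in each fit. Over the fitted alternatives the limma adjusted p of a member ran from 0.297 to 0.958. These settings (quantile normalization, equal array medians, log2 of the signal plus 32 and left-out arrays) gave -0.52 to -0.11 for ys1, -0.53 to -0.24 for nas1 S2, -0.55 to -0.20 for nas1 S1_x, -0.36 to -0.20 for DMAS1 and -0.67 to -0.09 for NAS-similar. The values nearest 0 came without both arrays numbered 1 for ys1 and nas1, without monocropped array 3 for DMAS1 and without monocropped array 2 for NAS-similar. The number of probe sets called over all tested was 0 with all arrays, 1 with log2 of the signal plus 32, and 0 to 34 with 1 array left out, the 34 without intercropped array 1. The cause was not tested, and no member or listed gene was among the calls. The list medians, none of them far from 0, ran from -0.13 to 0.11 with 1 array left out and so changed sign with the array.

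Same-numbered arrays of the groups deviated together with correlations of -0.07 to 0.27 over the probe sets. Differently numbered arrays gave -0.30 to 0.33. Deviations from the mean of so few arrays constrain each other, so these correlations cannot decide whether samples were paired. The labels name no pairing, and the numbers were not taken to pair the samples. Taking the replicate number as a block cannot change the differences (-0.37 for ys1 and -0.29 for DMAS1), since each number occurs once in each group. With this block the limma adjusted p of the members ran from 0.426 to 0.589, and 0 probe sets were called. Signals under 50, as for nas2, limit what the arrays resolve.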
